A study of Mus musculus with 35 samples.

Results

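The 10 imprinted genes described here are *Grb10*, *Igf2r*, *Peg10*, *Sgce*, *Mest*, *Plagl1*, *Nnat*, *Impact*, *Slc38a4* and *Gnas*. They were taken by symbol from a table of 26127 genes, and all 10 were found there. They were then sorted by the parental chromosome that is known to express them. *Grb10* and *Igf2r* are expressed from the chromosome that carries methylation at the imprint control region. *Peg10*, *Sgce*, *Mest*, *Plagl1*, *Nnat*, *Impact* and *Slc38a4* are expressed from the chromosome that lacks it, and the *Gnas* locus makes transcripts of both kinds. The sorting is textbook knowledge and does not come from these data, and the table sums the RNA of both alleles. Whether each gene keeps to its class in these cells was not examined.

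The RNA came from mouse embryonic stem cells (ESCs), of which the labels give E14 as background strain and ESC as cell type. WT cells (labelled Wildtype or control) and *Dnmt1* KO cells were sampled at days 0, 1, 3, 6, 9, 11, 17 and 25, with 2 libraries for each genotype and day and 3 at day 1 (17 WT and 17 KO libraries in all). A single library came from cells without *Dicer*, the gene of a small RNA-producing nuclease, and is called *Dicer* KO. The methods describe *Dnmt1* loxP/loxP ESCs from C57BL/6 mice, whereas the labels give E14 for all libraries. *Dnmt1* was deleted by Cre recombinase that tamoxifen switches on, and the cells grew in serum and LIF, with feeder cells or without them. Whether the WT libraries also received tamoxifen is not given in the sources used here. The *Dicer* KO cells were a targeted derivative of the *Dnmt1* loxP/loxP line. The series calls the libraries of a group biological replicates, and nothing used here says that they came from separate cultures, so p-values measure the spread between these libraries.

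Imprinted genes are expressed mainly from 1 of the parental chromosomes. The choice is set by methylation that is laid down on an imprint control region in the egg or the sperm and is then copied at each cell division by DNMT1, the maintenance DNA methyltransferase. At many loci the methylated promoter is silent, so that the other chromosome is expressed. At *Igf2r* the methylated region is instead the promoter of a long antisense RNA, *Airn*, which silences *Igf2r* on the chromosome where it is made. At *Grb10* the chromosome with the methylated control region is the active one in most tissues. DNA methylation of these genes was not analysed here, and the comparison asked how the RNA of each class stood in KO cells against WT cells as time passed.

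Promoter sequence is shown for 5 members because the classes differ in what loss of methylation could touch, a promoter or an element elsewhere. RefSeq gave promoter windows (250 bases before to 50 bases after a start, mouse build GRCm38.p6) for 7 of the 10 members and 15 starts, with none here for *Peg10* and *Sgce* and that of *Impact* not used. Each window shown occurs exactly once in NCBIM37, the build of the files. Capitals mark CpG dinucleotides, the sites that DNMT1 acts on.
Grb10, chr11:12037371-12037670, minus strand (chr11:11937374-11937673 in NCBIM37): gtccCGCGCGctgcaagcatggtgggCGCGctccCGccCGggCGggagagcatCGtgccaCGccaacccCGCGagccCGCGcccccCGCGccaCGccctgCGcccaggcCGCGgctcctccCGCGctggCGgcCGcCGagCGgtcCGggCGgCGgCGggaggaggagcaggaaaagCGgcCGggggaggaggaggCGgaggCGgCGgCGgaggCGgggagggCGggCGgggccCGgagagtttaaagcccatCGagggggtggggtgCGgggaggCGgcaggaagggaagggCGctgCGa
Igf2r, chr17:12769657-12769956, minus strand (chr17:12962523-12962822 in NCBIM37): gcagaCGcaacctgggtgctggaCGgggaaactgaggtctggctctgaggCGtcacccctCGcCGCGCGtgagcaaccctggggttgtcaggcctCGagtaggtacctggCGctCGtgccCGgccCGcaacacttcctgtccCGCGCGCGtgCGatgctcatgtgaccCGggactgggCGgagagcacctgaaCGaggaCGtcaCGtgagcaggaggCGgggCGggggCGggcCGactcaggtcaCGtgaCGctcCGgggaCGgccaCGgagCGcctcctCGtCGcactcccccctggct
Plagl1, chr10:13090582-13090881, plus strand (chr10:12810388-12810687 in NCBIM37): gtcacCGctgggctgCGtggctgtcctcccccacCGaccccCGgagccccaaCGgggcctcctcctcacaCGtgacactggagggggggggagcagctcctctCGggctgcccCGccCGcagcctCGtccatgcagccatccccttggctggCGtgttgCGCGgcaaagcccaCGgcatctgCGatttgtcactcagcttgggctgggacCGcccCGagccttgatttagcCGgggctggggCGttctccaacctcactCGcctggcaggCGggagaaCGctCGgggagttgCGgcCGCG
Mest, chr6:30737800-30738099, plus strand (chr6:30687800-30688099 in NCBIM37): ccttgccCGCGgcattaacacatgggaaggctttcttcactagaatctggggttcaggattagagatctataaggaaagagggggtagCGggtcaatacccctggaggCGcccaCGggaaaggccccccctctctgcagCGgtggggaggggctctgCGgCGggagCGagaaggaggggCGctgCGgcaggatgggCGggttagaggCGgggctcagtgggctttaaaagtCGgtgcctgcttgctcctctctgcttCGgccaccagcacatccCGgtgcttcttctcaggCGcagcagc
Nnat, chr2:157559828-157560127, plus strand (chr2:157385564-157385863 in NCBIM37): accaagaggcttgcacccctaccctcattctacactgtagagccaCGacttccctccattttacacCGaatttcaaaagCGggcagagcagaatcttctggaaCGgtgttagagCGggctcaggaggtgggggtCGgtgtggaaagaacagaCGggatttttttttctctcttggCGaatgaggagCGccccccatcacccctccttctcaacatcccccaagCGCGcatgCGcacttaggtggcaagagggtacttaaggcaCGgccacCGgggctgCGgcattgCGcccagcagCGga
The *Grb10* window held 45 CpGs, the *Igf2r* window 34, the *Plagl1* window 26, and the *Mest* and *Nnat* windows 17 each, against a median of 7 over all 32851 windows. A second *Grb10* start (chr11:12027922-12028221) had 9 CpGs and a second *Mest* start (chr6:30733256-30733555) 8. The 3 *Slc38a4* windows had 5 each. The 4 windows of *Gnas* had between 16 and 40. The letters TGCCGC, the core bound by the imprint protector ZFP57 when methylated, were searched on both strands, with overlapping matches counted apart. They occurred in 5 of the 15 member windows (*Grb10* 1 match, *Plagl1* 1, *Nnat* 1, and 2 in each of a pair of *Mest* windows whose starts lie 3 bases apart), against 11.6% of all windows. A match of letters does not show binding. Whether the windows lie in an imprint control region was not examined. The *Igf2r* window is that of its own start, and the window of *Airn* had 3 CpGs and 0 matches.

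Between 24.31 and 72.09 mega-reads per library stood behind the RPKM values (reads scaled to exon length in kilobases and to depth in mega-reads). Of these, 5.094 to 17.51 mega-reads fell in genes. The share in genes was 20.2% to 21.98% in the 20 libraries sampled up to day 9, apart from the third pair of day 1. That pair, all later libraries and the *Dicer* KO library made up the other 15, with 44.09% to 48.76%. Levels were therefore compared between genotypes within a day, and between days only inside such a set. The third day 1 pair went with the later libraries: *Peg10* had 40.2 RPKM in its WT library and 53.2 in its KO library, against 3.38 to 4.15 RPKM in the other 4 libraries of that day. The fit gave this pair a term of its own. *Dnmt1* RNA checked the labels. It lay between 14.1 and 34.8 RPKM in WT and between 2.58 and 8.13 RPKM in KO after day 0, except at day 6, where the libraries labelled WT had 3.22 and 3.405 RPKM and those labelled KO 20.2 and 20.4. Day 6 is given as labelled and kept out of the mean over days. All 10 ESC markers examined, *Pou5f1* and *Nanog* among them, were above 3 reads in each library. Their levels differed, with sums of 1007 and 1034 RPKM in WT and 1315 and 1325 RPKM in KO at day 25. In KO 7 of the 10 were higher and 1 was lower at that day, against 25.4% and 18.2% of all genes. At day 9, 0 were higher and 3 lower, against 9.9% and 5.3%. These calls are at a limma adjusted p below 0.05 without a filter on low values. The part of these markers in the results was not tested.

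**Figure D1:**
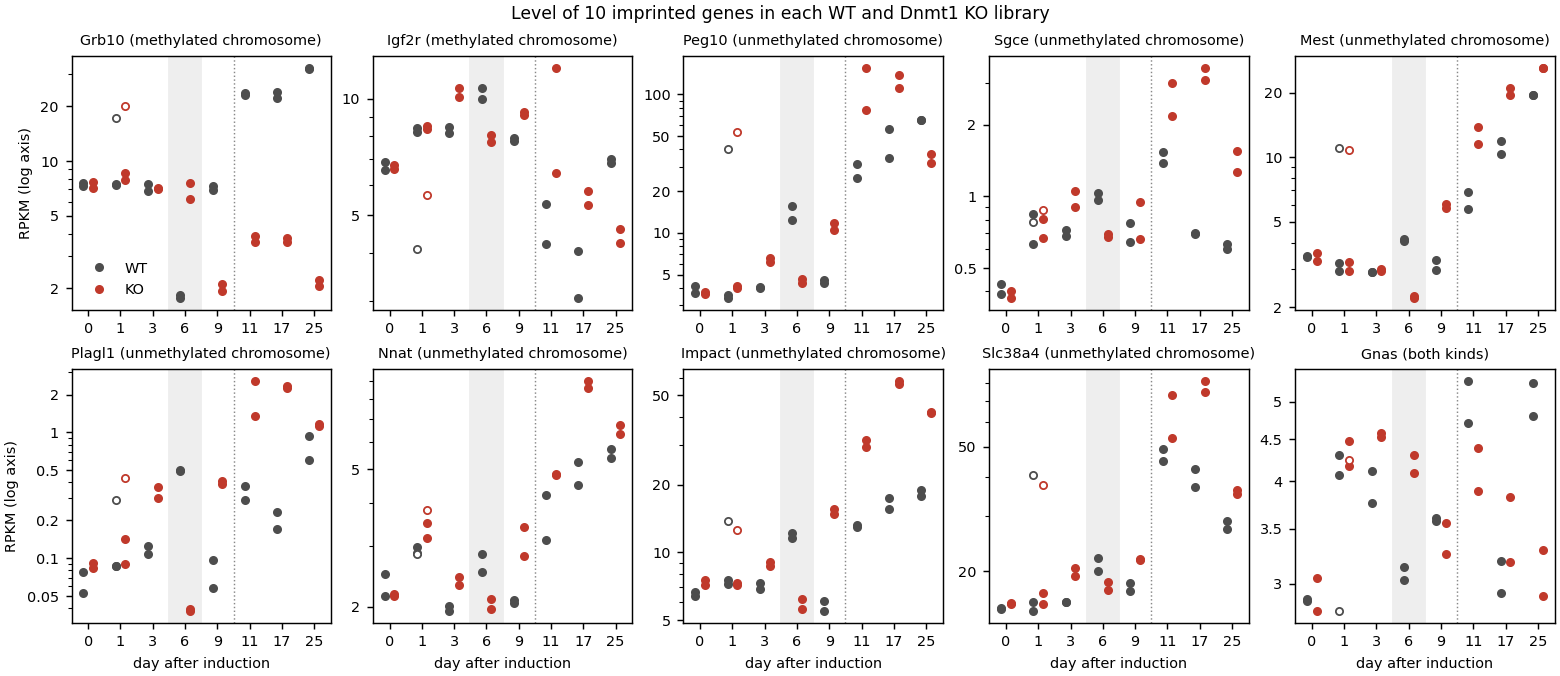
Level of each member in RPKM (log axis) in every WT (grey) and *Dnmt1* KO (red) library, by day after induction. Open circles are the third day 1 pair, the shaded band is day 6, whose labels *Dnmt1* contradicts, and the dotted line separates the days with a low and a high share of reads in genes. At day 25 *Grb10* has 2.23 and 2.05 RPKM in KO and 32.1 and 32.7 in WT, and *Impact* is higher in KO at day 3 and from day 9 on.

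At day 0, 0 of 9 members were called, and at day 1 again 0 of 9 (limma on log2(RPKM + 0.1), Benjamini-Hochberg adjusted p below 0.05, against 0% and 0.146% of all 11615 genes tested). At an unadjusted p below 0.05 there were 1 and 3, and voom on recovered reads called 0 at both days. The counts are over 9 members because *Plagl1* passed the filter on low values (RPKM above 1 in at least 2 libraries) only through KO libraries. It exceeded 1 RPKM in 0 of 17 WT and 6 of 17 KO libraries and is described on its own. All other members passed with libraries of both genotypes.

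*Grb10* fell at days 9, 11, 17 and 25. *Igf2r*, of the same class, rose at days 11 and 17 and fell at day 25. Of the 6 counted members expressed from the unmethylated chromosome, 2 rose at day 3 (*Impact* and *Slc38a4*), against 7.4% of all genes, and 5 at day 9, against 16.7%. At day 11 all 6 rose (22.7% of all genes), and at day 17 all 6 again (28.9%). At day 25, 4 rose (39.4%) and *Peg10* fell (25.9%). The median log2 difference of these 6 was 0.32 at day 3, 0.72 at day 9, 0.88 at day 11, 1.22 at day 17 and 0.39 at day 25, against 0.02, 0.02, 0.07, 0.09 and 0.13 over all genes. At day 3 no member fell (3.81% of all genes did), and at day 9 *Grb10* was the only one to do so (10.5%), as at days 11 (12.3%) and 17 (11.4%). In either direction, 6 of 9 members were called at day 9 (27.2%), 8 at day 11 (35%), 8 at day 17 (40.2%) and 8 at day 25 (65.4%). At day 25 most genes tested were called. These shares of all genes also depend on how many libraries stand behind them. Leaving out any 1 library of day 3 or day 9 leaves 1 library in a group, and fewer genes were then called. With only the libraries of day 11, 311 genes were called in place of 4066. In the mean over days 3, 9, 11, 17 and 25, 9 of 9 were called (57.8% of all genes), 7 higher (37.4%) and 2 lower (20.4%). With no term for the third day 1 pair 6 of 9 were called, without *Igf2r* (limma adjusted p 0.131), *Peg10* (0.1501) and *Gnas* (0.286). The call of *Gnas* in this mean (-0.13, limma adjusted p 0.0357) also ended without any of several single libraries, with an adjusted p of up to 0.0975.

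Centring each library on its median gene changed the split of all genes more than that of the members. The genes called at day 9 were 1940 higher and 1220 lower as deposited, and 1561 and 1580 after centring. At day 3 they were 859 and 442 against 664 and 665, at day 11 2636 and 1430 against 1714 and 2375, and at day 17 3352 and 1319 against 2031 and 2970. In the mean over days they were 4349 and 2370 against 3041 and 3666. Centring moved the median of all genes at day 17 from 0.09 to -0.09, and at day 11 from 0.07 to -0.05. The rises of *Peg10*, *Sgce*, *Mest* and *Impact* at days 11 and 17 were larger than these shifts. Centring ended the calls of *Slc38a4* at days 3 and 9 (limma adjusted p 0.138 and 0.101) and of *Nnat* at day 11 (0.0582), and *Gnas* passed at day 11 (-0.38, 0.00851).

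**Figure D2:**
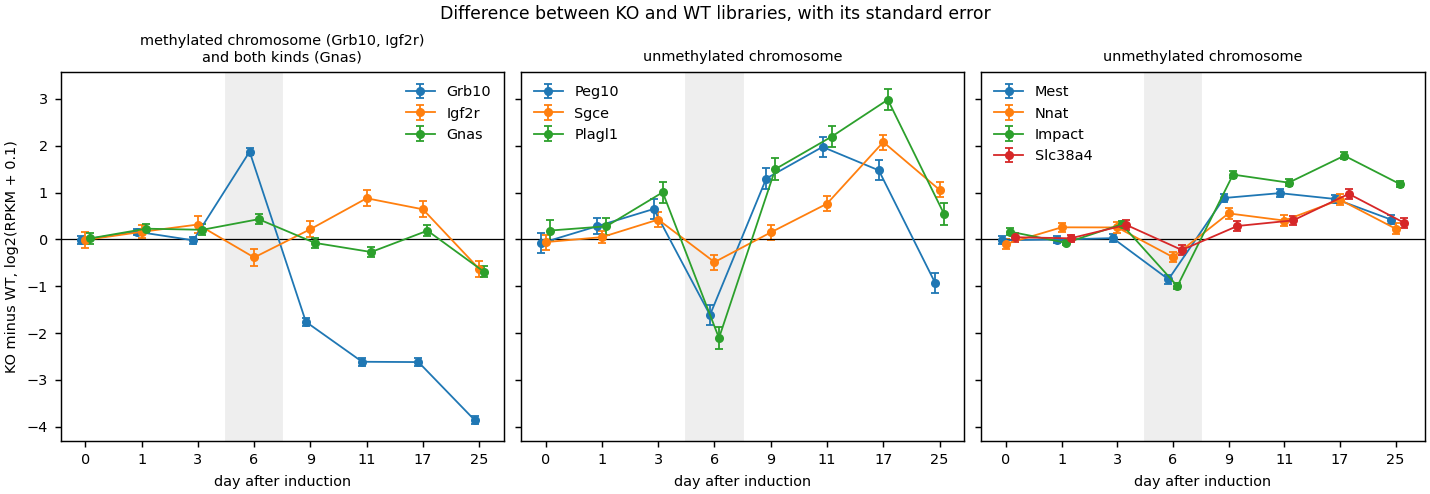
Log2 difference between KO and WT libraries at each day (points, limma on log2(RPKM + 0.1)) with its standard error (bars), in 3 groups of members. Day 6 (shaded) is as labelled and runs the other way. *Grb10* goes from -0.02 at day 3 to -3.86 at day 25, and *Peg10* from 1.98 at day 11 to -0.93 at day 25.

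*Grb10* encodes an adaptor protein that binds insulin and growth factor receptors and restrains growth. In NCBIM37 it spans chr11:11830511-11938686, minus strand (ENSMUSG00000020176.10, 23 merged exons, 9164 bases of exon). At day 3 it had 7.48 and 6.86 RPKM in WT and 7.02 and 7.11 RPKM in KO. The WT libraries of day 9 had 7.28 and 6.91 RPKM, and the KO libraries 2.12 and 1.93. The groups overlapped at day 3 and lay far apart at day 9. At day 11 the WT libraries had 23.6 and 23.1 RPKM and the KO libraries 3.89 and 3.58. At day 17 they had 22.1 and 24.1 against 3.77 and 3.57 RPKM. At day 25 they had 32.1 and 32.7 against 2.23 and 2.05 RPKM. KO stood at 0.286 of the WT mean at day 9, at 0.160 and 0.159 at days 11 and 17, and at 0.0660 at day 25. The log2 difference was -0.02 at day 3 (SE 0.08, limma adjusted p 0.925), -1.76 at day 9 (SE 0.08, 3.1e-13) and -3.86 at day 25 (SE 0.08, 3.3e-20). It was -2.61 at day 11 (adjusted p 1.7e-16, limma) and -2.62 at day 17 (6.9e-17).

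The *Grb10* difference also changed between days. From day 3 to day 9 it fell by 1.74 log2 units, with an SE of 0.12 (limma adjusted p 2.1e-09), a contrast that was chosen after the values had been seen. From day 9 to day 25 it fell by 2.10 (SE 0.12, 2.2e-11), and from day 17 to day 25 by 1.24 (4.2e-08). In WT libraries *Grb10* did not pass between days 0 and 9 (-0.07, limma adjusted p 0.594), and in KO libraries it fell by 1.82 (1.8e-13). Between days 11 and 25 it rose by 0.47 in WT (2.5e-05) and fell by 0.78 in KO (8.3e-08). With no term for the third day 1 pair these calls within WT and KO between days 11 and 25 ended (limma adjusted p 0.328 and 0.162), as did the change from day 3 to day 9 (0.419) and from day 17 to day 25 (0.102). The step from about 7 to 23 RPKM in WT between days 9 and 11 runs across the sets of libraries with a low and a high share of reads in genes, and time and set cannot be told apart there.

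Some feeder cells could be present under the stated culture, so fibroblast markers were examined beside *Grb10*. The summed level of 12 such markers was 11.12 and 12.9 RPKM in WT and 19.7 and 21.7 RPKM in KO at day 9, and at day 3 8.01 and 9.08 against 13.8 in each KO library. At days 11 to 25 it was 1.12 to 3.12 RPKM in WT and 1.33 to 2.15 RPKM in KO, with 2 to 7 of the 12 at or under 3 reads. Days 11 to 25 all belong to the libraries with a high share of reads in genes. Of the 12 markers, 6 rose and 0 fell at day 9 without a filter on low values, against 9.9% and 5.3% of all genes. At day 17, 2 rose (21.6%) and 0 fell (7.16%), and at day 25 1 rose (25.4%) and 4 fell (18.2%). The part of these markers in the *Grb10* result was not tested. In bulk RNA, fewer cells of a type and less RNA per cell cannot be told apart.

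*Igf2r* encodes the receptor that takes insulin-like growth factor 2 into the cell for breakdown. It spans chr17:12875272-12962530, minus strand (ENSMUSG00000023830.7). Although it belongs to the same class, it did not follow *Grb10*. At day 9 it had 7.80 and 7.94 RPKM in WT and 9.25 and 9.11 RPKM in KO. At day 11 the WT libraries had 4.21 and 5.34 RPKM and the KO libraries 6.44 and 12.05. KO was the higher genotype on both days without overlap, but its libraries of day 11 stood far apart from each other. At day 17 WT had 3.05 and 4.04 RPKM and KO 5.77 and 5.32. At day 25 WT had 7.01 and 6.81 RPKM and KO 4.61 and 4.25, so that the order of the genotypes was turned. The log2 difference was 0.32 at day 3 (adjusted p 0.279, limma) and 0.22 at day 9 (0.379). It rose to 0.88 at day 11 (SE 0.17, limma adjusted p 0.000446) and 0.64 at day 17 (0.00493), and was -0.63 at day 25 (0.00309). From day 17 to day 25 the difference fell by 1.27 (SE 0.25, limma adjusted p 0.000197).

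The rise of *Igf2r* rested on few libraries. Without the first WT library of day 17 it was 0.45 with a limma adjusted p of 0.0990. At day 11 it was 1.33 without the first KO library and 0.43 without the second, and in a fit of the 4 libraries of that day alone the limma adjusted p was 0.218. With no term for the third day 1 pair the limma adjusted p of *Igf2r* was 0.0751 at day 11, 0.201 at day 17 and 0.128 at day 25, while *Grb10* kept its calls at days 9 to 25 (largest adjusted p 0.00237).

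*Airn*, the antisense RNA that silences *Igf2r* in cis, was low and failed the filter, so it was tested without one. It had 2 and 23 reads in the WT libraries and 40 and 58 in the KO libraries at day 11, and 4 and 9 against 20 and 39 at day 17. At day 25 it had 2 and 7 reads in WT and 13 and 1 in KO. KO was the higher genotype at days 11 and 17, with log2 differences of 1.60 (limma adjusted p 0.00198) and 1.17 (0.0154), and the groups overlapped at day 25 (0.12, 0.875). *Airn* thus rose at the days when *Igf2r* rose. *Airn* overlaps *Igf2r* on the opposite strand. The libraries were stranded but the strand setting of the count is not given in the sources used here, so reads of the 2 transcripts may not be fully separated.

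**Figure D3:**
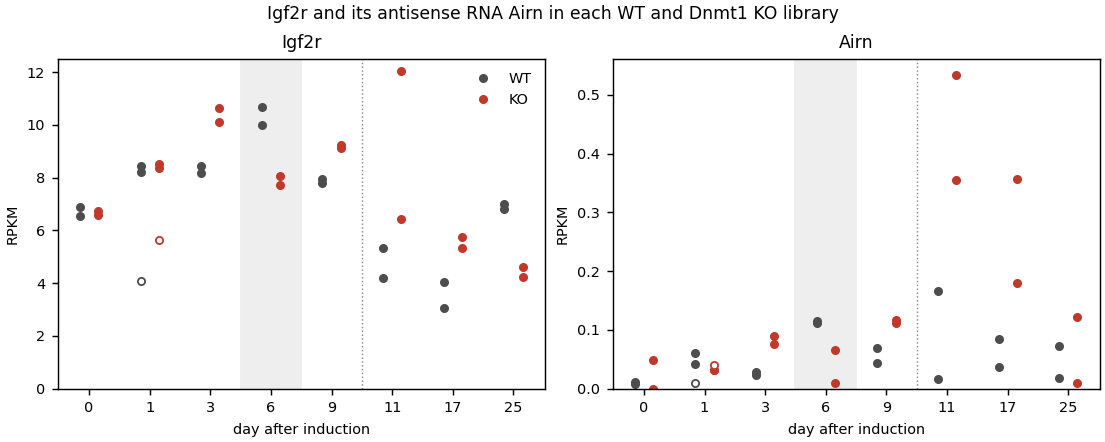
Level in RPKM (linear axes from 0) of *Igf2r* (left) and its antisense RNA *Airn* (right) in each WT (grey) and KO (red) library by day. Open circles are the third day 1 pair, the shaded band is day 6 and the dotted line separates the library sets. *Airn* is highest in the KO libraries of day 11 (0.355 and 0.534 RPKM), where *Igf2r* has 6.44 and 12.05 RPKM.

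*Peg10* and *Sgce* are neighbours on chromosome 6 whose annotated ends lie head to head, *Sgce* from 4624350 to 4697204 on the minus strand (ENSMUSG00000004631.9) and *Peg10* from 4697306 to 4710514 on the plus strand (ENSMUSG00000092035.1). *Peg10* derives from a retrotransposon and encodes gag- and pol-like proteins that the placenta needs. *Sgce* encodes a sarcoglycan, a membrane protein of the dystrophin complex. *Peg10* had 4.57 and 4.36 RPKM in WT and 10.5 and 11.8 RPKM in KO at day 9. At day 11 it had 24.8 and 31.3 RPKM in WT and 77.4 and 156 RPKM in KO. At day 17 it had 34.97 and 56.5 RPKM in WT and 138 and 111 RPKM in KO. KO was above WT without overlap on these days, with a wide gap between the KO libraries of day 11. At day 25 WT had 65.0 and 65.8 RPKM and KO 37.1 and 31.9, the reverse order. The log2 difference of *Peg10* was 0.65 at day 3 (SE 0.21, limma adjusted p 0.0535), 1.301 at day 9 (1.0e-04), 1.98 at day 11 (2.8e-07), 1.48 at day 17 (8.3e-06) and -0.93 at day 25 (0.000729). In WT it rose by 1.23 between days 11 and 25 (limma adjusted p 2.9e-05) and in KO it fell by 1.67 (1.3e-06).

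*Sgce* was low, with 38 to 327 reads per library. At day 9 it had 0.641 and 0.773 RPKM in WT and 0.662 and 0.946 RPKM in KO, which overlapped. At day 17 it had 0.7003 and 0.696 RPKM in WT and 3.09 and 3.47 RPKM in KO. The levels at day 25 were 0.604 and 0.633 against 1.26 and 1.54. Its log2 difference was 0.15 at day 9 (SE 0.16, limma adjusted p 0.528), 0.76 at day 11 (0.00076), 2.08 at day 17 (5.1e-10) and 1.06 at day 25 (6.6e-06). At day 25 these neighbours therefore differed in direction, *Peg10* lower and *Sgce* higher in KO. From day 9 to day 25 the difference fell by 2.23 for *Peg10* (SE 0.30, limma adjusted p 6.9e-06) and rose by 0.91 for *Sgce* (SE 0.23, 0.00236). Every call of *Peg10* was lost with no term for the third day 1 pair (limma adjusted p 0.806 at day 9 and 0.539 at day 25), the pair in which *Peg10* stood apart. These calls held when that pair was left out of the fit. In the fit of the libraries of day 11 alone the limma adjusted p was 0.0541 for *Peg10* and 0.149 for *Sgce*.

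Markers of extraembryonic cells were examined beside *Peg10*, a gene of placental tissue. The sum of 6 trophoblast markers was 4.05 and 4.51 RPKM in the WT libraries of day 11 and 6.81 and 10.28 RPKM in the KO libraries. Of the 6, 3 rose in the fit without a filter, against 3783 of all 22909 genes tested there. The day 17 sums were 2.57 and 2.97 RPKM against 10.52 and 10.9, and 5 of the 6 rose, against 21.6% of all genes. At day 25 the sum was 2.89 and 3.205 RPKM against 4.07 and 4.32, while *Peg10* fell. Of the 6 trophoblast markers, 2 rose (25.4% of all genes) and 1 fell (18.2%) at that day. The sum of 7 primitive endoderm markers was 10.38 and 12.2 RPKM in WT and 18.6 and 19.3 RPKM in KO at day 9. Of the 7, 5 rose at day 9, against 9.9% of all genes. At day 11 it was 10.5 and 13.3 RPKM in WT and 11.95 and 26.9 RPKM in KO, and 0 of the 7 were called. The second KO library, with 26.9 RPKM, also held the 156 RPKM of *Peg10* and the 12.05 RPKM of *Igf2r*. At day 17 the sums overlapped, with 3.37 and 5.55 RPKM in WT and 4.94 and 5.12 RPKM in KO. Of the 7 markers, 2 rose at day 17 (21.6% of all genes), and at day 25 2 rose (25.4%) and 3 fell (18.2%). The part of these markers in the results of *Peg10* and *Igf2r* was not tested.

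*Plagl1* encodes a zinc finger transcription factor that holds back cell growth (chromosome 10, 12810497 to 12851500, plus strand, ENSMUSG00000019817.11). It was nearly silent in WT cells of the early days. At day 3 it had 0.126 and 0.108 RPKM in WT and 0.370 and 0.303 RPKM in KO. By day 9 WT had 0.0582 and 0.0959 RPKM and KO 0.388 and 0.408, from 30 and 17 reads against 122 and 104. At day 17 it had 0.171 and 0.235 RPKM in WT and 2.33 and 2.24 RPKM in KO. KO was higher without overlap at each of these days, and the KO mean was 11.3 times the WT mean at day 17. At day 25 WT had 0.936 and 0.607 RPKM and KO 1.12 and 1.17, so that the gap had narrowed. Because *Plagl1* passed the filter only through KO libraries, its p-values are from the fit without a filter. The log2 difference, which the pseudocount shrinks for so low a gene, was 1.01 at day 3 (SE 0.22, limma adjusted p 0.00885) and 1.501 at day 9 (8.4e-05). It was 2.19 at day 11 (adjusted p 4.3e-07, limma), 2.98 at day 17 (2.7e-09) and 0.54 at day 25 (0.0564), which did not pass. In the filtered fit the day 3 call ended with a pseudocount of 1 (0.26, limma adjusted p 0.177), without the first KO library (0.0681) and without the second WT library (0.0600). Without the second WT library of day 25 the difference was 0.27, and without the first 0.82. From day 17 to day 25 the difference fell by 2.44 (SE 0.32, limma adjusted p 9.4e-06).

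*Impact* encodes a regulator that keeps the translation control kinase GCN2 in check (chromosome 18, 13130761 to 13151457, plus strand, ENSMUSG00000024423.5). It rose on each day from day 3 apart from day 6. At day 3 it had 7.33 and 6.87 RPKM in WT and 8.72 and 9.1004 RPKM in KO. WT stood at 6.06 and 5.48 RPKM at day 9, and KO at 15.7 and 14.8. At day 17 it had 17.5 and 15.5 RPKM in WT and 58.2 and 56.1 RPKM in KO. The levels at day 25 were 17.9 and 19.04 against 42.2 and 41.8. KO libraries lay above WT libraries without overlap at these days. The log2 difference was 0.32 at day 3 (SE 0.07, limma adjusted p 0.00342), 1.39 at day 9 (1.0e-12), 1.21 at day 11 (6.4e-12), 1.79 at day 17 (4.4e-15) and 1.18 at day 25 (6.1e-12). It rose by 1.06 between days 3 and 9 (SE 0.10, limma adjusted p 5.0e-07), in the contrast chosen after the values had been seen. With no term for the third day 1 pair the calls of *Impact* at days 9 to 25 held (largest limma adjusted p 0.00318), while those at day 3 (1) and between days 3 and 9 (0.949) ended. The day 3 call also ended without the second WT library (limma adjusted p 0.0688) or the second KO library (0.0542).

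*Mest* encodes a protein of the alpha/beta hydrolase fold family (chromosome 6, 30673547 to 30698457, plus strand, ENSMUSG00000051855.8). At day 3 it had 2.92 RPKM in both WT libraries and 3.02 and 2.94 RPKM in KO. At day 9 it had 3.34 and 2.998 RPKM in WT and 6.08 and 5.77 RPKM in KO. At day 25 it had 19.4 and 19.5 RPKM in WT and 26.1 RPKM in both KO libraries. Its log2 difference was thus 0.03 at day 3 (SE 0.09, limma adjusted p 0.903) and 0.88 at day 9 (1.8e-07). It was 0.99 at day 11 (adjusted p 2.2e-08, limma), 0.86 at day 17 (9.3e-08) and 0.42 at day 25 (0.000362). Like *Grb10* and *Impact*, *Mest* moved between days 3 and 9 (0.86, SE 0.13, limma adjusted p 0.000418). These were the 3 of 9 members called in that contrast, against 2.28% of all genes (1.7% higher and 0.577% lower). The contrast was chosen after these values had been seen, so the count is no test of the members. *Mest* also rose in WT libraries, by 1.61 between days 11 and 25 (limma adjusted p 2.6e-12). Its calls at single days did not hold with no term for the third day 1 pair (limma adjusted p 0.318 to 0.579 at days 9 to 25). The call of *Mest* between days 3 and 9 ended in that fit as well.

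*Nnat* encodes neuronatin, a small membrane proteolipid of developing brain and of endocrine cells (chromosome 2, 157385814 to 157388258, plus strand, ENSMUSG00000067786.9). At day 9 it had 2.09 and 2.05 RPKM in WT and 2.80 and 3.396 RPKM in KO. At day 17 it had 5.24 and 4.51 RPKM in WT and 8.62 and 9.05 RPKM in KO. The levels at day 25 were 5.73 and 5.38 against 6.74 and 6.33. KO was higher without overlap on these days. The log2 difference was 0.56 at day 9 (SE 0.11, limma adjusted p 0.00087), 0.40 at day 11 (0.00837), 0.85 at day 17 (2.8e-06) and 0.23 at day 25 (0.0791). At day 11 it was 0.19 without the second WT library (limma adjusted p 0.236) and 0.61 without the first. Because *Nnat* is a gene of neural tissue, 5 neural markers were summed beside it. They stood at 5.99 and 6.89 RPKM in WT and 7.83 and 7.93 in KO at day 9, at 7.41 and 7.88 against 14.9 and 16.97 at day 17, and at 9.38 and 9.98 against 21.2 and 24.5 at day 25. Of the 5, 1 rose at day 9 and 3 at day 17 in the fit without a filter, against 9.9% and 21.6% of all genes. At day 25, 2 rose (25.4%) and 1 fell (18.2%). The part of these markers in the *Nnat* result was not tested.

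*Slc38a4* encodes an amino acid transporter of the system A family (chromosome 15, 96825254 to 96886387, minus strand, ENSMUSG00000022464.6). It had 17.4 and 18.4 RPKM in WT and 21.8 RPKM in both KO libraries at day 9. At day 11 it had 49.3 and 44.8 RPKM in WT and 72.8 and 53.4 RPKM in KO. At day 17 it had 42.4 and 37.1 RPKM in WT and 74.9 and 81.3 RPKM in KO. The levels at day 25 were 28.9 and 27.2 against 35.3 and 36.3. KO was higher without overlap at these days. The log2 difference was 0.31 at day 3 (adjusted p 0.0462, limma) and 0.29 at day 9 (0.0358), calls that ended when any 1 library of the day was left out. It was 0.41 at day 11 (adjusted p 0.00302, limma), 0.97 at day 17 (5.8e-08) and 0.35 at day 25 (0.00384). At day 11 it was 0.18 without the first KO library (limma adjusted p 0.0930) and 0.63 without the second.

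*Gnas*, the locus of the stimulatory G protein alpha subunit, makes several transcripts from separate promoters, some from the methylated and some from the unmethylated chromosome (chromosome 2, 174109821 to 174172245, plus strand, ENSMUSG00000027523.12). The table holds 1 value for all of them, over 22 annotated transcripts. It was not called at days 3, 9, 11 and 17. Its levels at day 9 were 3.58 and 3.61 RPKM in WT and 3.56 and 3.26 RPKM in KO. At day 25 it had 5.27 and 4.81 RPKM in WT and 3.30 and 2.90 RPKM in KO. The log2 difference lay between -0.27 and 0.21 at days 3, 9, 11 and 17 (limma adjusted p 0.0693 to 0.674) and was -0.69 at day 25 (SE 0.11, 2.0e-05). *Nespas*, the antisense RNA of the locus, is expressed from the unmethylated chromosome. It had 2.40 and 2.20 RPKM in WT and 3.37 and 3.24 in KO at day 9, and 2.35 and 2.86 against 4.58 and 3.68 at day 17. Its log2 difference in the fit without a filter was 0.51 at day 9 (adjusted p 0.0385, limma), 0.64 at day 17 (0.00489) and 0.03 at day 25 (0.977), so that it did not share the day 25 difference of *Gnas*.

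At day 6 *Grb10* and 6 of the 7 members of the unmethylated class, *Plagl1* included, differed between the libraries as labelled in the direction opposite to day 17, as *Dnmt1* did. *Grb10* had 1.76 and 1.85 RPKM in the libraries labelled WT and 6.22 and 7.62 in those labelled KO (log2 difference 1.87, limma adjusted p 8.2e-14). *Plagl1* had 0.493 and 0.501 RPKM against 0.0379 and 0.0392 (-2.11, limma adjusted p 1.2e-06 without a filter). The difference was -1.61 for *Peg10* (limma adjusted p 6.3e-06), -0.997 for *Impact* (2.6e-10), -0.85 for *Mest* (2.9e-07), -0.48 for *Sgce* (0.0272) and -0.38 for *Nnat* (0.0162). The call of *Sgce* ended without any 1 of the 4 libraries of the day (limma adjusted p 0.0760 to 0.137) and after median centring (0.0676), and that of *Nnat* ended after centring (0.0577) and without either of 2 libraries (0.117 and 0.153). In all, 7 of the 9 counted members were called at day 6 against 27.1% of all genes, 2 higher (8.61%) and 5 lower (18.5%) in the libraries labelled KO. With day 6 as labelled in the mean over days, 8 of 9 members were called in place of 9 (48.2% of all genes), and *Gnas* was not (-0.03, limma adjusted p 0.566).

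Between days 17 and 25 the difference between KO and WT became lower for all 9 counted members, against 29.2% of all genes that became lower and 54.4% that changed in either direction (limma interaction contrast). The sizes ran from -0.44 for *Mest* (limma adjusted p 0.00674) to -2.40 for *Peg10* (2.2e-06). Median centring turned the split of all genes in this contrast from 2927 higher and 3393 lower to 4133 and 2495, moved their median from -0.04 to 0.15, and ended the call of *Mest* (-0.25, limma adjusted p 0.0724). Between days 9 and 25, 6 of 9 members differed, against 48.2% of all genes. Of these 5 were lower (21.5% of all genes) and *Sgce* was higher (26.7%). Within a genotype, 1 of 9 members changed in WT between days 0 and 9 (*Sgce*, 0.66, limma adjusted p 0.00763), against 15% of all genes (1743 genes, and 298 to 1227 with 1 library left out). In KO 7 of 9 changed over the same days, against 30.8%. These were all 6 counted members of the unmethylated class, which rose (18.1% of all genes), and *Grb10*, which fell (12.8%). Between days 11 and 25, 8 of 9 changed in WT (68% of all genes) and 9 of 9 in KO (53%), where *Mest*, *Nnat* and *Impact* rose (28% of all genes) and the others fell.

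**Figure D4:**
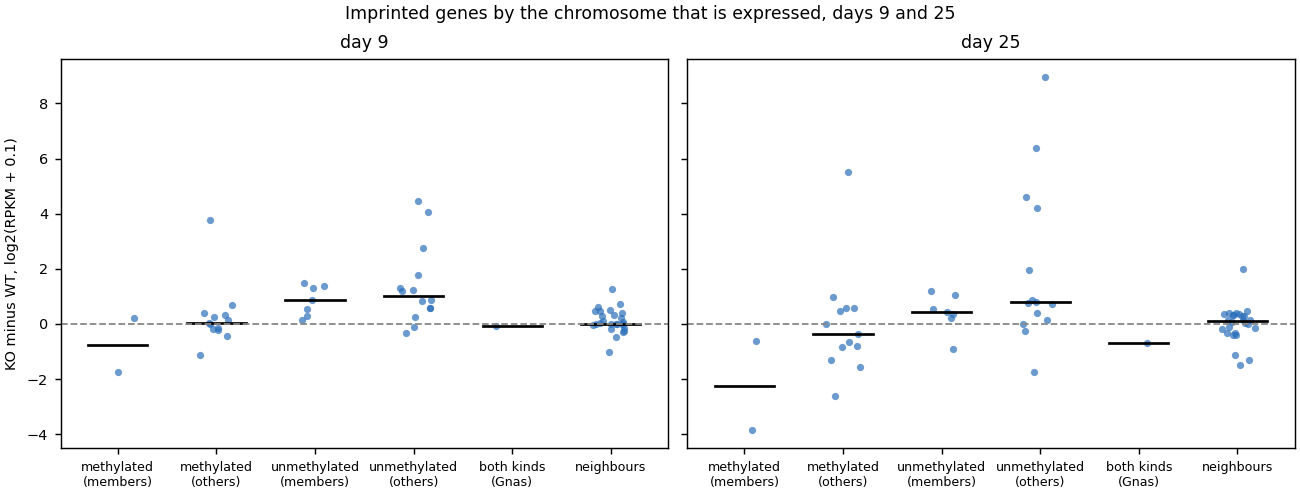
Log2 difference between KO and WT at day 9 (left) and day 25 (right) for the members, for other imprinted genes expressed from the methylated or the unmethylated chromosome, and for neighbours of the members. Each point is a gene, black bars are medians of the points plotted, and the dashed line is the median of all genes. The others of the unmethylated class have a median of 1.03 at day 9, and the member at -3.86 at day 25 is *Grb10*.

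Other imprinted genes were set beside the members, tested without a filter over 22909 genes. Of 17 others expressed from the unmethylated chromosome, 14 were tested. At day 9, 11 of them rose and 0 fell, against 9.9% and 5.3% of all genes, and at day 25 10 rose and 2 fell, against 25.4% and 18.2%. Their median log2 difference was 1.03 at day 9 and 0.78 at day 25, against 0 over all genes. *Peg3*, a zinc finger gene, had 1.23 at day 9 (adjusted p 3.4e-08, limma) and -0.28 at day 25 (0.0329), and *Snrpn*, a splicing gene, had 0.59 (9.0e-06) and 0.75 (1.2e-07). Of 13 others expressed from the methylated chromosome, 3 rose and 1 fell at day 9, and 3 rose and 5 fell at day 25, with a median of 0.02 and -0.38. Those that fell at day 25 included *Igf2*, a growth factor (-2.63, limma adjusted p 1.4e-11), *Cdkn1c*, a cell cycle inhibitor (-1.58, 2.9e-10), and *Phlda2*, a gene that limits placental growth (-1.30, 5.1e-07). None of these 3 fell at day 9, as *Grb10* did. *Rtl1*, in the same list, rose by 3.78 at day 9 (9.4e-13). It lies opposite to an antisense RNA of the other class, and the strand of the count is not given.

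Genes that lie near the members were counted in the same way. Of 30 such neighbours 28 were in the table and 26 were tested. At day 9, 3 rose and 2 fell, against 9.9% and 5.3% of all genes. At day 17, 11 rose and 2 fell (21.6% and 7.16%), and at day 25 5 rose and 6 fell (25.4% and 18.2%). Both neighbours of *Grb10* were among those called at day 9. *Ddc*, the gene of dopa decarboxylase, rose by 1.26 (limma adjusted p 6.8e-07), and *Cobl*, the gene of an actin nucleator, fell by 1.03 (0.00541). At day 25 they stood at 1.99 (2.9e-10) and -1.12 (0.000803). Beside *Mest*, *Copg2* had -0.01 at day 9 (adjusted p 1, limma) and rose by 0.46 at day 25 (6.4e-07). Next to *Slc38a4*, which rose at day 25, the transporter genes *Slc38a1* and *Slc38a2* fell by 1.51 (3.4e-06) and 1.31 (7.5e-08).

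Of 12 genes that set or keep imprints, 1 rose and 4 fell at day 9, against 9.9% and 5.3% of all genes. At day 25, 4 rose and 6 fell, against 25.4% and 18.2%, with *Dnmt1* itself among those that fell. *Zfp57*, the gene of a protein that guards imprints, differed by -0.45 at day 9 (adjusted p 0.000204, limma) and 0.37 at day 25 (0.000304). *Uhrf1*, whose protein brings DNMT1 to newly copied DNA, differed by 0.21 at day 9 (adjusted p 0.0713, limma) and rose by 0.33 at day 25 (0.00117). *Dnmt3a*, a de novo methyltransferase gene, differed by -0.20 at day 9 (adjusted p 0.399, limma) and fell by 1.89 at day 17 (8.5e-10).

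Across the differences of the 8 days, the genes most like *Grb10* among 10269 candidates were *Trim26* (Pearson r 0.982), *Fndc3c1* (0.982), *Gm17103* (0.980), *Sec61a2* (0.980) and *Bmp2k* (0.978). Their differences were smaller, with -0.68 for *Trim26* and -1.42 for *Fndc3c1* at day 25. The genes most like *Peg10* were *Csrnp1* (0.996), *B4galt1* (0.993), *Tns3* (0.992), *Hipk2* (0.991) and *Gm17306* (0.990), again with smaller differences (1.06 for *Csrnp1* at day 11). The 8 points of each r share the libraries, and a day as far from the rest as day 6 weighs heavily in them.

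The *Dicer* KO library was compared without a test. *Plagl1* stood at 7.51 RPKM there, above each of the other 34 libraries (0.0379 to 2.58 RPKM). *Grb10* had 4.86 RPKM, below the WT libraries other than the libraries labelled WT at day 6, and *Impact* had 28.6 RPKM, above all WT libraries. *Gnas* had 4.53 RPKM, inside the range of the others. *Mest* had 4.92 RPKM, inside the range only through libraries with a low share of reads in genes. The other libraries with a high share had 5.76 RPKM or more of *Mest*. In this library the 12 fibroblast markers summed to 45.3 RPKM, above the 1.12 to 21.7 RPKM of the other libraries, and their part in these values was not tested.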

How the data were processed

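RNA of 35 libraries of mouse ESCs was described. Stranded total RNA-seq reads were trimmed and aligned to NCBIM37. The submitters' processing notes name Trim Galore 0.3.5 and TopHat2 2.0.11, whereas the study's methods give another version of Trim Galore and none of TopHat. Reads of low mapping quality were discarded, and genes were quantified in SeqMonk. The deposited values are RPKM on a linear scale, while the methods name log2 RPM. The authors' strand setting is not given in the sources used here, and replicates were not pooled.

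All samples were grouped by genotype and day from their labels. RPKM values were tested as log2(RPKM + 0.1) with limma 3.58.1 (R 4.3.3, trend), for the 11615 genes whose RPKM exceeded 1 in 2 or more of 34 libraries, with a term for the third day 1 pair, 17 residual degrees of freedom and Benjamini-Hochberg adjustment over all genes (threshold 0.05). Fold changes are on that scale, which understates low genes. Listed genes were tested over 22909 genes without a filter. Whole reads were recovered from the RPKM steps and exon lengths (99.81% to 99.91% of values whole per library) and used in limma's voom as an alternative only. The fit was tested on simulated data. Exon lengths were found for 26030 of 26127 genes. Tables and figures used Python 3.11.15, pandas 2.3.3, numpy 2.4.6 and matplotlib 3.10.9.

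The members and lists were chosen with earlier results of these data known. The text names all members, and of the other genes those of the lists and, for *Grb10* and *Peg10*, the 5 with the highest Pearson r. *Mit1*, *Hymai*, *Snurf*, *Kcnq1ot1*, *Peg13* and *Sox1* were not analysed here. Depth limits low genes, and 3 reads were taken as the floor. Alternatives were other pseudocounts, no filter, median centring, no term for the third day 1 pair, a replicate block, voom, fits of single days and leaving out each library.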

Additional observations from a re-analysis of the deposited data

Results flagged for a closer look

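The difference between KO and WT was not the same at day 25 as at earlier days for the 9 counted members and, in the fit without a filter, for *Plagl1*, by limma's interaction contrast with an adjusted p below 0.05 against day 17. The day 25 difference minus the day 17 difference, on the log2 scale, was -1.24 for *Grb10*, -1.27 for *Igf2r*, -2.40 for *Peg10*, -1.02 for *Sgce*, -0.44 for *Mest*, -2.44 for *Plagl1*, -0.62 for *Nnat*, -0.61 for *Impact*, -0.62 for *Slc38a4* and -0.87 for *Gnas*. For *Grb10* this is a deeper fall, for *Peg10* and *Igf2r* a change of sign, and for *Sgce*, *Mest*, *Impact* and *Slc38a4* a smaller rise. Against day 9 the difference was -2.10 for *Grb10*, -0.85 for *Igf2r*, -2.23 for *Peg10*, 0.91 for *Sgce*, -0.46 for *Mest*, -0.96 for *Plagl1* and -0.61 for *Gnas*. The *Plagl1* value depends on the pseudocount. With a pseudocount of 1 it was -0.09 in the filtered fit (limma adjusted p 0.644). It was -0.80 without the first WT library of day 9 and -0.68 without the first WT library of day 25. Days 9 and 25 belong to library sets with a low and a high share of reads in genes, and time and set cannot be told apart, whereas days 17 and 25 belong to the same set. Groups held 2 or 3 libraries, too few for a test of single values far from the rest of their group.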

How the results depend on the processing

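Over all contrasts and settings, 2394 member values kept their side of the threshold, 163 lost the call and 23 gained one. Among values called in at least 1 of the 2 fits compared, 0 were reversed in direction. The direction of values called in neither fit was not followed. With no term for the third day 1 pair, the members called of 9 were 0 at day 3, 2 at day 6, 3 at day 9, 3 at day 11, 4 at day 17, 4 at day 25, 6 in the mean without day 6 and 4 in the mean with it. They were 2 for day 25 minus day 9, 3 for day 25 minus day 17, 0 for day 9 minus day 3, 0 and 3 for day 9 minus day 0 in WT and KO, and 3 and 2 for day 25 minus day 11 in WT and KO. The genes called fell with them, to 382 at day 9 and 2430 at day 25. In that setting the shift of the pair enters the spread that all groups share. With the pair left out of the fit, no call of a member ended, and 3253 genes were called at day 9 and 7655 at day 25. At day 3, 1 member was called with a pseudocount of 1, 1 without a filter, 1 after median centring and 6 with only the libraries of the day, and at day 11 3 with only the libraries of the day. In WT between days 0 and 9, 0 were called with a pseudocount of 1, 2 after median centring and 2 without replicate 3 of day 1.

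With each library left out in turn, the members called were 0 to 1 at day 3, 5 to 5 at day 6, 5 to 5 at day 9, 7 to 9 at day 11, 7 to 8 at day 17, 8 to 8 at day 25 and 8 to 9 in the mean (7 to 8 with day 6). They were 6 to 7 for day 25 minus day 9, 8 to 9 for day 25 minus day 17, 3 to 3 for day 9 minus day 3, 0 to 1 and 6 to 7 for day 9 minus day 0 in WT and KO, and 7 to 8 and 8 to 9 for day 25 minus day 11 in WT and KO.

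With the replicate number as a block, 2 members were called at day 3, 8 at day 6, 6 at day 9, 8 at day 11, 8 at day 17 and 8 at day 25, and 2891 genes at day 9. The block called *Peg10* at day 3 (limma adjusted p 0.0407) and *Igf2r* at day 6 (0.0496) and ended the calls of *Slc38a4* at day 3 (0.0561) and of *Gnas* in the mean over days without day 6 (0.0749). Deviations of libraries with the same number correlated between -0.16 and 0.26 by day, so the numbers do not pair the samples. Genes with few reads, such as *Airn*, *Plagl1* and *Sgce*, are limited by depth.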
